A study of Rattus norvegicus with 6 samples.

Results

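The nuclear genes for the subunits of the mitochondrial respiratory chain and of ATP synthase were followed in kidney cortex from male rats of the Sprague-Dawley strain. Members were every gene with a rat symbol beginning Ndufa, Ndufb, Ndufc, Ndufs, Ndufv, Uqcr, Cox4, Cox5, Cox6, Cox7, Cox8 or Atp5, with Sdha to Sdhd and Cyc1, and without the Ndufaf assembly factors and pseudogenes. Of 112 such symbols known in rat, 76 had a named probe, out of 15645 symbols named on the array, and 75 of these were measured: 31 of complex I, 4 of complex II, 8 of complex III, 16 of complex IV and 16 of complex V. The 36 others are not analysed here, among them Cyc1, Cox7a1, Ndufa4l2 and Atp5mc3. Cox8c, a testis isoform, was well above background on 0 of 6 arrays. The brightest of several probes stood for a gene.

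The 3 treated rats received potassium bromate, an oxidising salt that is toxic to the kidney, at 100 mg/kg/day for 4 weeks, and the 3 control rats received water for the same time. All were bought at 5 weeks of age and ate the same basal diet. RNA of each animal went to 1 single-colour array, so that every value comes from 1 animal and from cortex tissue as a whole. Each array held 61537 probes, with 57.9% to 63.1% of them well above background and 0 saturated. Of the 2 slides, 1 carried water replicate 1 alone and 1 carried all 5 other arrays. Levels are the log2 of a signal over its own array's 75th percentile, so that 0 is the signal of that percentile, and differences are bromate minus water on that log2 scale. Genes were called at an adjusted p under 0.05 from limma, adjusted over all 27506 genes tested.

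The respiratory chain passes electrons from NADH through complex I, or from succinate through complex II, to ubiquinone, and on through complex III and cytochrome c to complex IV, which reduces oxygen. Complexes I, III and IV pump protons out of the matrix, and complex V, the ATP synthase, lets them return and makes ATP. Tubule cells of the renal cortex, above all those of the proximal tubule, are rich in mitochondria and spend much of this ATP on the sodium pump.

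The 4 promoters shown were chosen because they belong to the member that fell most, its sister isoform, a member whose fall was seen with 2 probes, and the ATP synthase inhibitor, which had the largest positive difference. They are the 250 bases before the start of the gene in RefSeq on build GRCr8, which is not the build rn4 of the array's annotation. Capitals mark matches to a TATA box (TATAAA) or to the core site of ETS factors such as GABP (CCGGAAG, here also as CTTCCGG on the other strand). The Cox8b promoter lies on the minus strand at chr1:205408274-205408523, Cox8a on the minus strand at chr1:213833624-213833873, Sdhb on the plus strand at chr5:158547684-158547933 and Atp5if1 on the minus strand at chr5:150026678-150026927.
Cox8b: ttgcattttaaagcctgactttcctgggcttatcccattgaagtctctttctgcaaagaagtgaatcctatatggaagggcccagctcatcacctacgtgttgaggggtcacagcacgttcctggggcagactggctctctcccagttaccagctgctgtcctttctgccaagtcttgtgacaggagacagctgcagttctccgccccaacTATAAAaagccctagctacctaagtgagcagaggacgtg
Cox8a: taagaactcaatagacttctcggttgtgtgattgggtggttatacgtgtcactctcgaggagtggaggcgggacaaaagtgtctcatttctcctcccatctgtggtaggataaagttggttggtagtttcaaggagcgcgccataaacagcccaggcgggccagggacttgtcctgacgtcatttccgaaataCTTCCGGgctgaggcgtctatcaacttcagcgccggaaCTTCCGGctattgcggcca
Sdhb: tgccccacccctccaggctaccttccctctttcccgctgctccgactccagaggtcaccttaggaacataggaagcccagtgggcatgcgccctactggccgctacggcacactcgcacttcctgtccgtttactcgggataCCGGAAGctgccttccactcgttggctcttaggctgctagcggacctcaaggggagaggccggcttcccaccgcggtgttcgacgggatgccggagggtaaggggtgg
Atp5if1: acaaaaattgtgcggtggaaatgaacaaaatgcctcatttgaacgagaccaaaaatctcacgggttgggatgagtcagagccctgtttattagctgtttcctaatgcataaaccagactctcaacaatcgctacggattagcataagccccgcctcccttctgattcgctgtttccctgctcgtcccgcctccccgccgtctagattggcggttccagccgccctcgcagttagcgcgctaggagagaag
The TATA box of Cox8b begins 39 bases before the start. Cox8a holds the ETS core in duplicate, beginning 57 and 19 bases before the start, and Sdhb holds it once, 108 bases before. Atp5if1 has none of the motifs searched in this window.

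A promoter was found for 66 of the 75 members, and each was searched on both strands for 4 motifs, no match overlapping another. The ETS core was in 19 of the 66 (28.8%), against 7.27% of all 33469 promoters of this length. The core site of NRF1, the nuclear respiratory factor (GCGCA, any base, then GCGC), was in 10 (15.2%), against 3.75% of all promoters. TATAAA was in 5 (7.58%), against 12.9%, and the site of the estrogen-related receptors (TCAAGGTCA) was in 0, against 0.388%. All promoters were counted whatever the kind of gene and whether or not it was measured here, while the 66 belong to measured genes. The shares among promoters of measured genes alone were not computed. The median difference in expression was -0.17 for the 19 members with the ETS core and -0.16 for the 47 without it, and -0.20 for the 10 with the NRF1 site and -0.15 for the 56 without it. It was 0.02 for the 5 members with TATAAA, Cox8b among them, and -0.17 for the 61 without it. These are descriptions of letters in a window, not of bound factors.

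Of the 75 subunit genes 8 fell in bromate-treated cortex, 0 rose and 67 were not called. The 8 make up 10.67%, against 7.59% of all genes tested that fell and 6.87% that rose. One of the 8, Cox8b, fell 6.97-fold, and the other 7 fell by 1.24-fold to 1.33-fold. Called and uncalled members together leaned to one side. Negative differences made up 59 of 75 (78.7%), against 53.0% of all genes tested. The median was -0.15, against -0.02 over all genes. The median of the members was -0.11 with quantile normalization and -0.09 with normexp background correction followed by quantile normalization. In 38 members (50.7%) all bromate animals were below all water animals, against 21.5% of all genes tested. In 3 members (4%) all were above, against 19.6%, and in 34 the groups overlapped. Groups without overlap, in either direction, made up 41% of all genes tested. The median SE was 0.086 for the members, against 0.131 over all genes tested. With a smaller error, groups separate more readily at a small shift. In whole tissue, fewer cells of a type and less RNA per cell cannot be told apart.

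**Figure D1:**
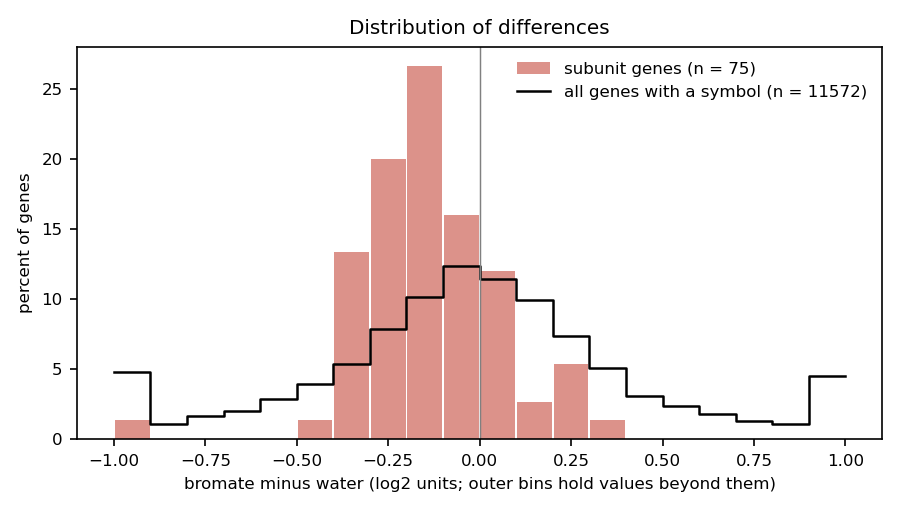
Share of genes (percent) by difference in log2 signal, bromate minus water, for the 75 measured subunit genes (bars) and for all 11572 measured genes with a symbol (line). The subunit genes lie in a narrow range, mostly just below 0, and the bar at the far left is Cox8b. Their median SE was 0.086, against 0.122 over all genes with a symbol.

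The differences other than that of Cox8b were small. They ran from -0.41 to 0.39 over the 74 other members, at most 1.33-fold lower or 1.31-fold higher. For 73 of the 74 the 95% interval of the difference lay within 2-fold in either direction, and for 67 it lay within 1.5-fold. The interval, which is not adjusted for the number of genes, lay wholly below 0 for 22 members and wholly above 0 for 2. Of all 27506 genes tested, 4849 were lower and 4193 higher at an unadjusted limma p under 0.05. The widest was that of Cox7c, -0.47 to 1.02, a small structural subunit of complex IV.

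**Figure D2:**
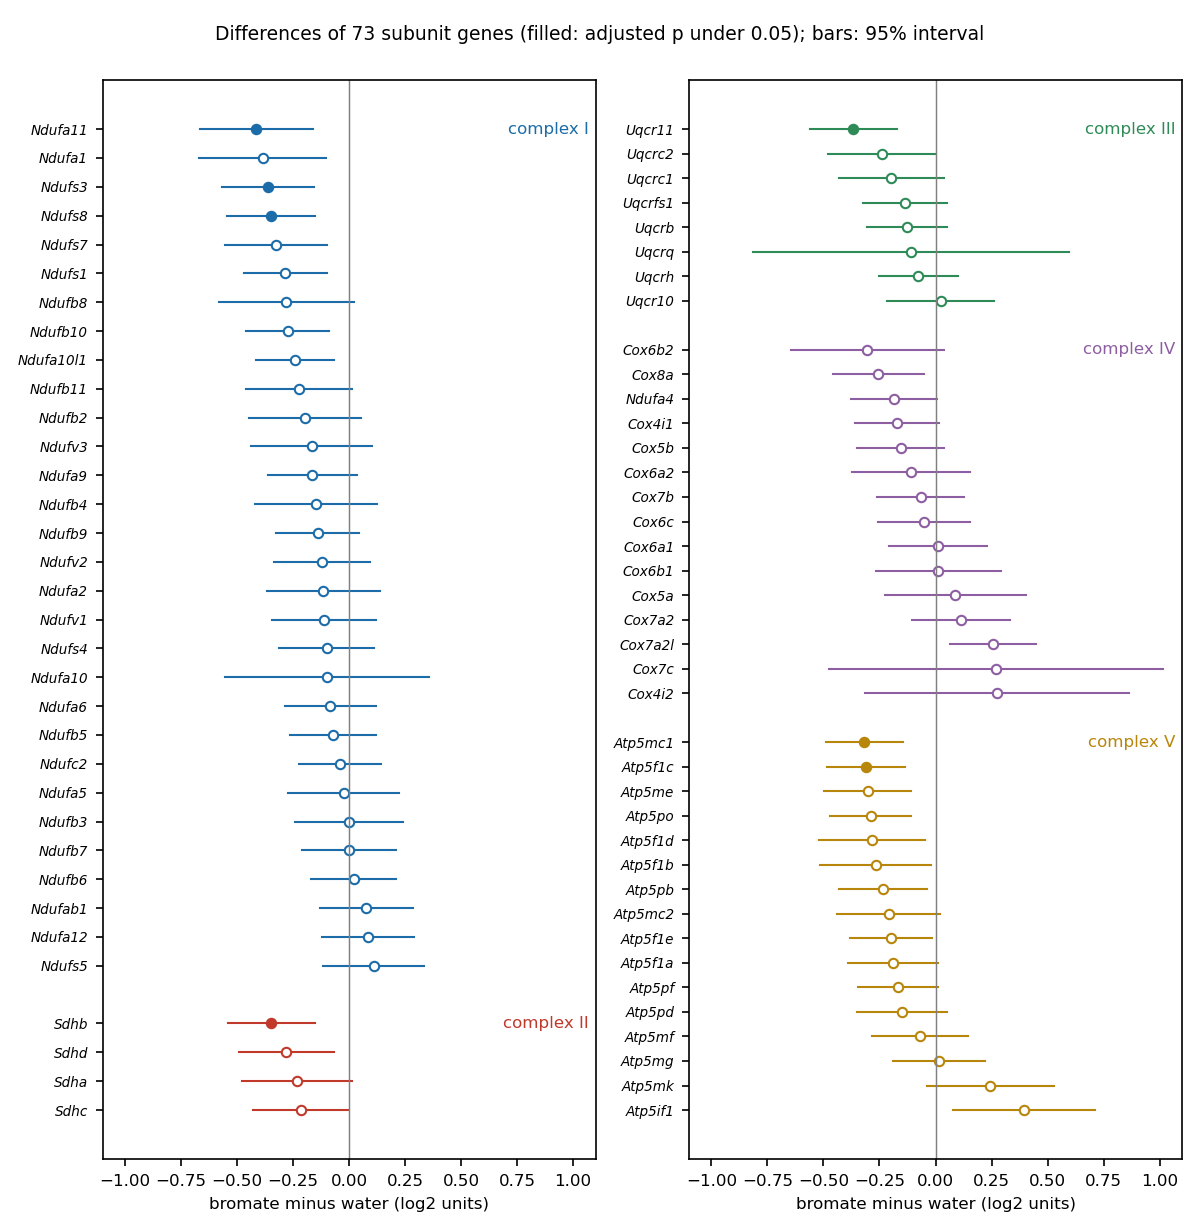
Difference in log2 signal, bromate minus water, of 73 subunit genes by complex, with 95% intervals from limma; filled points have an adjusted p under 0.05. Cox8b (-2.80), which is off this scale, and 1 other of the 75 members are not drawn. All 4 genes of complex II and most of complex V lie below 0, while complex IV lies on both sides.

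Complex I oxidises NADH. Of its 31 measured genes 3 (9.68%) fell, against 7.59% of all genes tested. A negative difference was found in 26, and the median was -0.12. In 12 (38.7%) all bromate animals were below all water animals, against 21.5% of all genes tested. In 0 were they above, against 19.6%. The 7 genes of its conserved core, which carry the flavin, the iron-sulfur clusters and the quinone site, had a median of -0.29, and 2 of them fell. Among the 24 accessory genes 1 fell, and the median was -0.11.

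Ndufs3, a core subunit of the arm that reaches into the matrix, had log2 signals of 5.12, 5.15 and 5.26 in bromate cortex and 5.60, 5.47 and 5.53 in water cortex. All bromate animals were lower, by 0.36 ± 0.08 (SE; limma adjusted p = 0.041). Ndufs8, which holds a pair of iron-sulfur clusters near the quinone site, had 3.58, 3.46 and 3.46 in bromate cortex and 3.83, 3.82 and 3.90 in water cortex. It fell by 0.35 ± 0.08 (SE; limma adjusted p = 0.039), and its other probe also fell. Ndufa11, an accessory subunit of the membrane arm, had 3.61, 3.42 and 3.58 in bromate cortex and 4.09, 3.88 and 3.88 in water cortex. The groups did not overlap, and the fall was 0.41 ± 0.10 (SE; limma adjusted p = 0.049).

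The other named genes of complex I were not called by the probe that stood for the gene. Ndufb8, an accessory subunit of the membrane arm, had 7.47, 7.44 and 7.33 in bromate cortex and 7.93, 7.58 and 7.57 in water cortex, a difference of -0.28 ± 0.12 (SE; limma adjusted p = 0.18). Ndufs5, also accessory, had the largest positive difference of the complex, 0.11 ± 0.09 (SE; limma adjusted p = 0.45). Its bromate values of 6.66, 6.40 and 6.52 overlapped the water values of 6.41, 6.42 and 6.41. Ndufab1, the mitochondrial acyl carrier protein, had 5.29, 5.13 and 5.12 in bromate cortex and 5.13, 5.06 and 5.11 in water cortex by its brightest probe, which was not called (limma adjusted p = 0.56). A dim probe of Ndufab1 gave -2.92, -2.82 and -3.11 in bromate cortex and -2.46, -2.545 and -2.57 in water cortex, and was called lower when each probe was tested for itself, by 0.43 ± 0.10 (SE; limma adjusted p = 0.042).

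Complex II, or succinate dehydrogenase, is also an enzyme of the citric acid cycle and the only complex here encoded wholly in the nucleus. All 4 of its genes had negative differences, with a median of -0.26. In all 4 the bromate animals were all below the water animals, against 21.5% of all genes tested. Sdhb, the iron-sulfur subunit, had 5.14, 5.19 and 5.21 in bromate cortex and 5.53, 5.45 and 5.60 in water cortex. It fell by 0.35 ± 0.08 (SE; limma adjusted p = 0.039), and its other probe also fell. The flavin subunit Sdha had 7.02, 6.83 and 6.84 in bromate cortex and 7.03, 7.10 and 7.25 in water cortex, a difference of -0.23 ± 0.10 (SE; limma adjusted p = 0.17). Its highest bromate value and lowest water value nearly met. Of the membrane anchors, Sdhd had a difference of -0.28 ± 0.09 (SE; limma adjusted p = 0.083) and Sdhc one of -0.22 ± 0.09 (SE; limma adjusted p = 0.15).

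Complex III hands electrons from ubiquinol to cytochrome c. Of 8 measured genes 1 (12.5%) fell, against 7.59% of all genes tested. A negative difference was found in 7, and the median was -0.13. In 5 (62.5%) the groups were separate with bromate below, against 21.5% of all genes tested. Uqcr11, the smallest subunit of the complex, had 6.25, 6.13 and 6.16 in bromate cortex and 6.60, 6.49 and 6.56 in water cortex. The fall of 0.37 ± 0.08 was seen in every bromate animal (SE; limma adjusted p = 0.035). Of its 2 other probes one fell by 0.38 ± 0.09 (SE; limma adjusted p = 0.043), and the other, with a difference of -0.26 ± 0.09 (SE; limma adjusted p = 0.10), was not called. Uqcr10, a small subunit as well, had 8.09, 7.95 and 8.05 in bromate cortex and 7.93, 7.93 and 8.15 in water cortex. These groups overlapped, and the difference was 0.02 ± 0.10 (SE; limma adjusted p = 0.89). The core proteins Uqcrc1 and Uqcrc2 had differences of -0.20 and -0.24, and the Rieske iron-sulfur protein gene Uqcrfs1 had -0.14, all 3 not called.

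Complex IV, cytochrome c oxidase, has several subunits that come as a widespread isoform and as an isoform restricted to certain tissues. Of its 16 measured genes 1 (6.25%) fell, against 7.59% of all genes tested. A negative difference was found in 9 and a positive one in 7. The median was -0.06, and -0.0071 with quantile normalization. The 11 widespread subunits included 0 that were called in either direction, at a median of -0.05.

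Cox8b, which encodes the heart and skeletal muscle isoform of subunit VIII in rodents, had log2 signals of -3.78, -3.76 and -3.57 in bromate cortex and -0.64, -0.62 and -1.44 in water cortex. The bromate values lay close together and more than 2 log2 units below the lowest water value. The probe was well above background on all 6 arrays, but dim: its mean level was at percentile 30.5 of all genes tested. The fall of 2.80 ± 0.24 (SE), or 6.97-fold, had a limma adjusted p of 0.0031. The second probe of Cox8b gave -3.78, -3.83 and -3.41 in bromate cortex and -0.88, -1.16 and -1.91 in water cortex, a fall of 2.36 ± 0.28 (SE; limma adjusted p = 0.0075). Cox8b stayed called in all 18 alternative settings, with differences of -3.07 to -1.90. The smallest, with normexp background correction followed by quantile normalization, was a 3.72-fold fall. On the shared slide alone, with 3 bromate and 2 water arrays, it fell by 2.67 (limma adjusted p = 0.012). Slide as a block gave the same values as leaving out water replicate 1, so the 18 settings are not all distinct.

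The other muscle genes set beside Cox8b did not move as one. Of 10 markers of skeletal and cardiac muscle 5 were measured, of which 1 fell: Tnni2, the fast troponin I, by 0.78 ± 0.16 (SE; limma adjusted p = 0.033). Tnnt3 and Tnnc2 went the other way, with all bromate animals above all water animals, but were not called. In Tnnt1 and Mb the groups overlapped. Myh2, Actn2 and Myl1 were well above background on 0 of 6 arrays, and Ckm and Myh7 on 1. The mean level of the 5 measured markers was -2.01 to -1.72 on the bromate arrays and -2.25 to -1.91 on the water arrays. Brown fat also uses Cox8b. Ucp1, its defining gene, was well above background on 0 of 6 arrays. Of the 3 brown fat markers that were measured, Cidea, a lipid droplet protein, rose by 1.49 ± 0.15 (SE; limma adjusted p = 0.0048). Adipoq (-0.44) and Fabp4 (-1.23) had negative differences and were not called.

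Cox8a, the widespread isoform of subunit VIII, had 7.95, 7.79 and 7.82 in bromate cortex and 8.16, 8.08 and 8.08 in water cortex. All bromate values were below all water values, with a difference of -0.26 ± 0.08 (SE; limma adjusted p = 0.092). For subunit IV, the widespread Cox4i1 had 7.77, 7.65 and 7.67 in bromate cortex and 7.90, 7.85 and 7.86 in water cortex, a difference of -0.17 ± 0.08 (SE; limma adjusted p = 0.18). Cox4i2, the lung and hypoxia isoform, had 2.60, 2.36 and 2.48 in bromate cortex and 1.66, 2.48 and 2.48 in water cortex. Its positive difference of 0.27 ± 0.24 (SE; limma adjusted p = 0.47) came with water replicate 1 far below the other two animals, and the dimmer probe gave -0.26. Cox7c, picked out after its values were seen, had the same pattern, with 2.32 in water replicate 1 and 3.33 and 3.43 in the other water animals, beside 3.39, 3.20 and 3.30 in bromate cortex.

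For subunit VIa, the widespread Cox6a1 had 8.72, 8.51 and 8.64 in bromate cortex and 8.66, 8.55 and 8.62 in water cortex, a difference of 0.01 ± 0.09 (SE). The muscle isoform Cox6a2 had -1.37, -1.42 and -1.51 in bromate cortex and -1.49, -1.17 and -1.30 in water cortex, a difference of -0.11 ± 0.11 (SE). Neither was called, and the groups overlapped in both. The probes of Cox6a2 disagreed: a dimmer one gave -2.49, -1.73 and -1.45 in bromate cortex and -3.06, -3.93 and -3.865 in water cortex. Tested for itself it rose by 1.73 ± 0.35 (SE; limma adjusted p = 0.029), and one more probe gave -0.63 ± 0.33 (SE) and was not called.

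For subunit VIb, the widespread Cox6b1 had 5.81, 5.56 and 5.60 in bromate cortex and 5.79, 5.53 and 5.61 in water cortex, nearly the same. The testis isoform Cox6b2 had 2.97, 2.82 and 2.90 in bromate cortex and 2.93, 3.41 and 3.27 in water cortex, a difference of -0.31 ± 0.14 (SE; limma adjusted p = 0.19). A much dimmer probe of Cox6b2 gave 0.23 ± 0.37 (SE) and was not called, and the mean of its probes gave -0.037. Cox7a2, the widespread isoform of subunit VIIa, had a difference of 0.11 ± 0.09 (SE), and Ndufa4, first named as a subunit of complex I and now placed in complex IV, had -0.18 ± 0.08 (SE); neither was called.

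**Figure D3:**
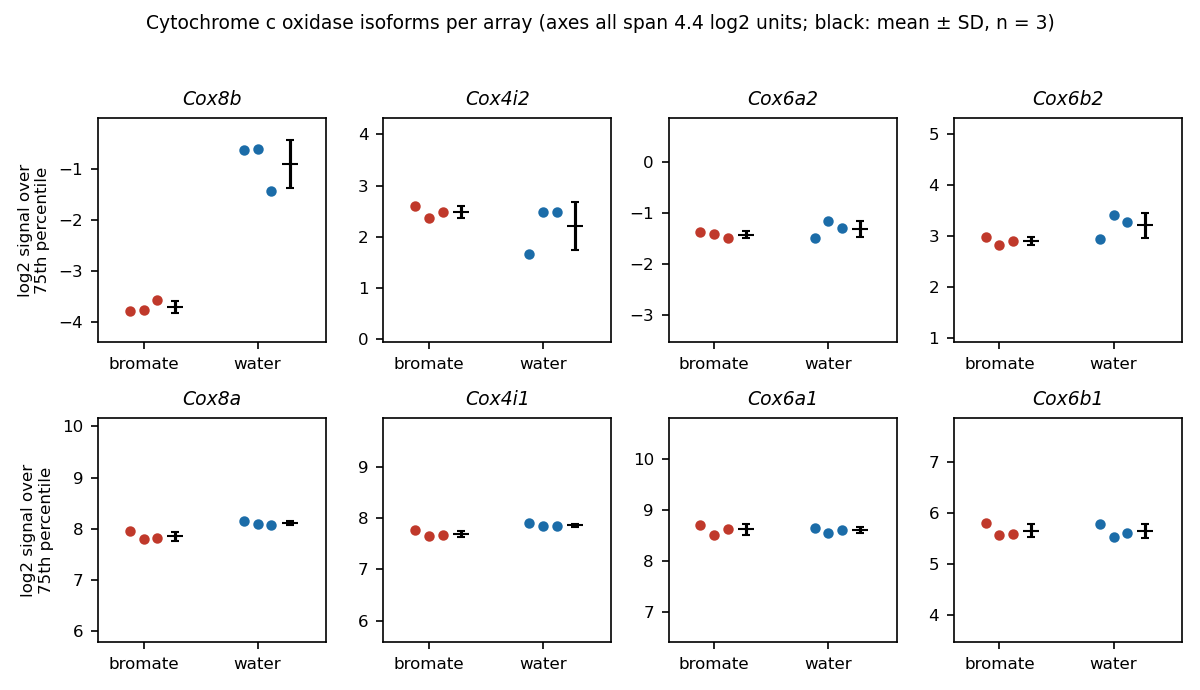
Log2 signal relative to the array's 75th percentile of 4 tissue-restricted isoforms of cytochrome c oxidase (top) and their widespread counterparts (bottom), per animal, bromate left of water, with mean ± SD (n = 3 each). Each panel spans the same number of log2 units but is centred on its own gene. Cox8b is the pair member whose groups lie far apart, and water replicate 1 is low for Cox4i2.

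Complex V makes ATP from the returning protons. Of its 16 genes 2 (12.5%) fell, against 7.59% of all genes tested. A negative difference was found in 13, and the median was -0.20. In 12 (75%) all bromate animals were below all water animals, against 21.5% of all genes tested. In the F1 head, the catalytic part, this held for 5 of 5 genes (median -0.27), in the peripheral stalk for 4 of 4 (median -0.20) and in the proton-driven c ring for 2 of 2. Among the 4 small membrane subunits 1 was separate below and 1 above.

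Atp5f1c, the central shaft that turns in the F1 head, had 5.77, 5.72 and 5.76 in bromate cortex and 6.05, 6.04 and 6.09 in water cortex. It fell by 0.31 ± 0.07 (SE; limma adjusted p = 0.040). Atp5mc1, one of the genes for the c ring protein, had 7.21, 7.23 and 7.22 in bromate cortex and 7.56, 7.51 and 7.56 in water cortex. It fell by 0.32 ± 0.07 (SE; limma adjusted p = 0.037), also by its other probe, and both genes showed little spread within either group. Atp5mc2, which encodes the same mature c ring protein, had a difference of -0.21 ± 0.09 by its brightest probe (SE; limma adjusted p = 0.19). A second probe of Atp5mc2 fell by 0.39 ± 0.09 (SE; limma adjusted p = 0.044), and one more, at -0.35 ± 0.13 (SE), was not called. Atp5f1a, the alpha subunit of the head, had 8.82, 8.65 and 8.75 in bromate cortex and 8.95, 8.88 and 8.96 in water cortex, a difference of -0.19 ± 0.08 (SE; limma adjusted p = 0.17).

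3 members had all bromate animals above all water animals, and none was called. Atp5if1, which binds the F1 head and stops it from splitting ATP, had 6.65, 6.25 and 6.42 in bromate cortex and 6.17, 5.998 and 5.97 in water cortex. Its difference was 0.39 ± 0.13 (SE; limma adjusted p = 0.094), and it was called higher in 2 of 18 alternative settings. Cox7a2l, a factor that joins complexes III and IV into a supercomplex, was picked out after its values were seen. It had 5.35, 5.32 and 5.36 in bromate cortex and 5.15, 5.003 and 5.10 in water cortex, a difference of 0.26 ± 0.08 (SE; limma adjusted p = 0.080), and was called higher in 4 of 18 settings. The third was Atp5mk, a small membrane subunit also picked out afterwards, with a difference of 0.24 ± 0.12 (SE; limma adjusted p = 0.20).

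Leaving out 1 array ended most calls. Whichever of the 6 arrays was left out, Cox8b stayed called, while 0 calls of the 7 other fallen genes were kept, at limma adjusted p of 0.056 to 0.14 and differences of -0.45 to -0.29. On the shared slide alone 2 members fell, Cox8b and Cox6b2, and over all genes 6.67% fell in that setting. There Cox6b2 lay at the threshold (limma adjusted p = 0.049995).

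Probes of the same gene mostly moved together. Beside the brightest, 56 other probes of 39 members were tested, of which 47 had the sign of the brightest and 9 the opposite one. Tested for themselves, 8 of them fell and 1 rose, against 7.6% and 7.19% of all probes that fell and rose. Several members have near-identical copies in the genome, such as Ndufa10 and Ndufa10l1, and their probes may not tell the copies apart.

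The genes around the subunits were mixed. Among 19 measured regulators of mitochondrial biogenesis 1 (5.26%) rose and 2 (10.5%) fell, at a median of -0.11. Of all genes tested 6.87% rose and 7.59% fell, shares that also stand beside the counts of the lists below. Ppargc1a, the coactivator that drives transcription of subunit genes, had -1.09, -1.02 and -0.94 in bromate cortex and -0.64, -0.66 and -0.34 in water cortex, and fell by 0.47 ± 0.11 (SE; limma adjusted p = 0.047). Its relative Pprc1 had 0.72, 0.70 and 0.24 in bromate cortex and -0.29, -0.42 and -0.61 in water cortex, and rose by 0.99 ± 0.16 (SE; limma adjusted p = 0.018). Polg2, the accessory subunit of the mitochondrial DNA polymerase, fell by 0.68 ± 0.11 (SE; limma adjusted p = 0.017). The nuclear receptors Esrra (-0.25) and Esrrg (-0.36), the respiratory factor Nrf1 (-0.15) and the mitochondrial transcription factor Tfam (-0.005) were not called.

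Of 16 citric acid cycle enzymes 1 (6.25%) rose and 1 (6.25%) fell, with a median of -0.22. In 10 (62.5%) the bromate animals were all below the water animals, against 21.5% of all genes tested. Citrate synthase, Cs, had 3.84, 3.79 and 3.86 in bromate cortex and 3.35, 3.24 and 3.39 in water cortex, and rose by 0.50 ± 0.08 (SE; limma adjusted p = 0.017). Pdha1, of the pyruvate dehydrogenase complex, had 5.41, 5.36 and 5.51 in bromate cortex and 6.02, 5.91 and 5.85 in water cortex, and fell by 0.50 ± 0.09 (SE; limma adjusted p = 0.021). Both had groups that did not overlap, in opposite directions.

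Among 16 genes of mobile electron carriers and uncoupling 1 rose and 4 fell, at a median of -0.16. Slc25a30, a mitochondrial carrier of the kidney, fell by 0.69 ± 0.16, Coq7, of ubiquinone synthesis, by 0.46 ± 0.11, and the electron transfer flavoprotein subunit Etfb by 0.40 ± 0.09 (SE; limma adjusted p = 0.041, 0.049 and 0.040), and the fourth was Etfdh. The one that rose, the uncoupling protein relative Slc25a27, was well above background on only 1 of 3 water arrays. Cytochrome c itself, Cycs, had a difference of -0.20 and Ucp2 one of 0.78, both not called. Of 13 assembly factors of complex I, 2 rose, Ndufaf4 by 0.46 ± 0.10 and Ndufaf7 by 0.41 ± 0.10 (SE; limma adjusted p = 0.036 and 0.048), and 0 fell. The median of the 13 was -0.07, and 8 of them had a negative difference. Of 27 assembly factors of the other complexes 0 rose and 3 fell: Pet100 by 0.55, Lyrm7 by 0.49 and Coa5 by 0.38.

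The rest of the mitochondrion gave few calls. Of 68 mitochondrial ribosomal proteins 1 rose, Mrpl55, and 1 fell, Mrpl48, and the median was -0.01. Of 15 carriers and outer membrane proteins 1 fell, the oxoglutarate carrier Slc25a11, by 0.51 ± 0.10 (SE; limma adjusted p = 0.026). Of 16 genes of cristae and cardiolipin 1 fell, the cardiolipin synthase Crls1, by 0.45 ± 0.09 (SE; limma adjusted p = 0.028).

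Many markers of the tubule segments fell, and all 17 listed for the proximal tubule were measured. Of these 17 proximal tubule markers 6 fell and 0 rose, with a median of -0.44. Of 11 thick limb and distal tubule markers 9 fell and 0 rose (median -1.46), and of 12 collecting duct markers 7 fell and 0 rose (median -1.001). The mean level of the proximal markers was 5.46 to 5.91 on the bromate arrays and 6.21 to 6.83 on the water arrays. That of the thick limb and distal markers was 2.13 to 2.31 on the bromate arrays and 3.88 to 3.98 on the water arrays. That of the collecting duct markers was 2.54 to 2.77 on the bromate arrays and 3.56 to 3.94 on the water arrays. The proximal mean includes 2 uncalled genes that varied widely among the water animals. These were Slc7a13, with 7.61, 4.83 and 2.54 in water cortex, and Slc22a7, with 0.83, -2.71 and -5.06. The median level of the proximal markers was 6.60 to 6.78 on the bromate arrays and 7.45 to 7.65 on the water arrays. Among 11 macrophage markers 1 rose, C1qb, and 0 fell (median 0.24), with a mean level of 1.44 to 2.09 on the bromate arrays and 1.40 to 1.68 on the water arrays. Of 9 endothelial markers 1 fell, Emcn, of 7 podocyte markers 1 fell, Wt1, and 0 of 7 lymphocyte and 0 of 9 fibroblast markers were called. The medians of these lists were -0.25 for endothelium, -0.24 for podocytes, -0.23 for lymphocytes and 0.16 for fibroblasts. The part of these shifts in the subunit values was not tested.

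**Figure D4:**
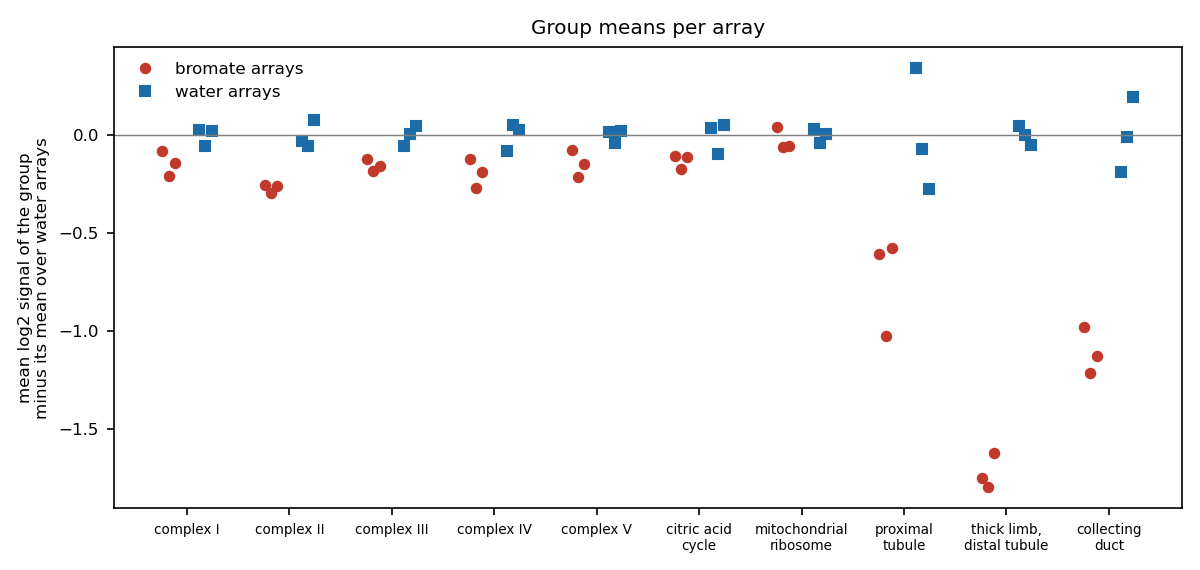
Mean log2 signal of each group of genes on each array, minus its mean over the 3 water arrays; circles are bromate arrays, squares water arrays, each pair of columns with bromate left. The 5 complexes sit a little below 0 on all bromate arrays, the mitochondrial ribosome spans 0, and the tubule markers lie lower on the bromate arrays. The complex IV mean includes Cox8b, and the proximal tubule mean includes Slc7a13 and Slc22a7, which varied widely among the water animals. The 11 widespread subunits of complex IV, not drawn apart, overlapped. Their mean levels were 6.82, 6.64 and 6.72 on the bromate arrays and 6.71, 6.76 and 6.82 on the water arrays.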

How the data were processed

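RNA from the renal cortex of 6 rats, 3 per group, was labelled with Cy3, and each animal had an array of its own, per the labels' protocols. Per the submitters' processing notes, spots were quantified in Agilent Feature Extraction 10.7; per the file headers, the annotation is that of rat build rn4. The deposited processed signal is an intensity from which background and surface trend were removed, with no scaling of 1 array to another, per the file headers. The values that the authors deposited beside it are a linear ratio: each column equalled the processed signal over a constant 0.145% to 0.319% above that array's 75th percentile, to within 0.01%. It is not centred by gene and follows the direction of the signal. Its column medians were 0.1025, 0.1054 and 0.1026 for bromate and 0.1043, 0.1049 and 0.103 for water. The software that made it is not named in the sources used here.

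The log2 was taken of each deposited intensity over its array's 75th percentile across non-control probes, leaving out 1439 control spots and 0 to 4 outlier spots per array. Probes were named by accession through RefSeq's gene annotation, where 28206 had 1 symbol, 0 had several and 33331 had none. Probes well above background on fewer than 3 of 6 arrays were left out, and the brightest stood for the gene, unnamed probes of 1 accession counting as 1 gene. Bromate was compared with water in limma 3.58.1 (lmFit, then eBayes) under R 4.3.3 (with version 1.17.8 of data.table), with Benjamini-Hochberg adjustment over 27506 genes, after a test on simulated data. Only 3 animals per group limit the precision. Members were compared as lists by counts and medians, with no test of a list.

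The members, lists and tests were chosen with earlier results of these data known. Of 328 list entries 322 matched by symbol and 1 by synonym, and 281 were measured. A member that enters the counts is not reported here by itself. Named members were those called, the largest difference of each sign and the brightest probe of each complex, those whose probes disagreed in sign with a call, and the isoform pairs. Of each related list, up to 3 called genes with the largest difference and 7 chosen regulators and carriers were named. Genes outside this are said to have been picked out afterwards, or stand as plain values for completeness. The 18 alternatives were quantile normalization, another percentile, normexp (offset 50) followed by quantile normalization, the deposited ratios, 2 filters, outliers kept, the mean of probes, array weights, a robust variance with trend, blocks for slide and for replicate number, and each array left out.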

Additional observations from a re-analysis of the deposited data

How the results depend on the processing

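Over the 18 alternatives the count of members that fell was 8 in the main setting, 5 with quantile normalization, 19 with an intensity trend and robust variance, 15 with array weights, 2 with slide as a block and 1 with no filter on dim probes. It was 1 to 2 when 1 array was left out. The count that rose was 0 in the main setting, 2 with quantile normalization, 2 with normexp followed by quantile normalization, 1 with the trend and 1 with array weights. The share of all genes that rose in these alternatives was 7.98%, 9.10%, 8.63% and 9.98%, in that order. With quantile normalization 7.77% of all genes fell, against 6.67% of the members. The share of all genes that fell moved too, to 9.15% with the trend, 11.7% with array weights, 1.53% with no filter and 1.93% to 6.67% with 1 array left out. The medians of all 5 complexes stayed below 0 in each alternative, within -0.29 and -0.0071. That of complex III was -0.074 with normexp followed by quantile normalization, against -0.13, and that of complex IV was -0.0071 with quantile normalization and -0.023 with normexp followed by it, against -0.06. The cause was not tested, except that leaving out an array leaves fewer animals and dropping the filter tests 45432 genes. Same-numbered arrays did not deviate together (correlations of 0.051, 0.070 and -0.095), and not every array correlated best with its own number. The numbers were therefore not treated as pairs. These correlations cannot exclude a pairing with little effect on expression. With the replicate block 1 member fell, Cox8b, and 1.95% of all genes.

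No member that was called turned its sign, but 18 of the uncalled ones reported by name did. With quantile normalization the differences were 0.012 for Ndufa5, 0.039 for Ndufb3, 0.034 for Cox6c and 0.0085 for Atp5mf. With normexp followed by quantile normalization they were 0.013 for Ndufa5, 0.038 for Ndufb3, 0.0011 for Uqcrfs1 and 6.9e-05 for Uqcrh. With the percentile taken over probes bright on every array it was 0.0094 for Ndufb3. With the mean of a gene's probes they were 0.15 for Ndufc2, 0.33 for Cox6a2, -0.0033 for Ndufb7, -0.093 for Ndufab1 and -0.013 for Atp5mg. With array weights they were 0.028 for Ndufa10, -0.0016 for Uqcr10 and -0.0080 for Atp5mg, and with slide as a block 0.00031 for Ndufa10, 0.023 for Ndufb3, -0.013 for Uqcr10 and -0.084 for Cox7c. Leaving out 1 array gave -0.29 to 0.00031 for Ndufa10, -0.11 to 0.031 for Ndufa5, -0.068 to 0.069 for Ndufb3, -0.039 to 0.045 for Ndufb7 and -0.0070 to 0.058 for Ndufb6. It gave -0.40 to 0.17 for Uqcrq, -0.013 to 0.096 for Uqcr10, -0.035 to 0.069 for Cox6a1, -0.064 to 0.087 for Cox6b1, -0.084 to 0.47 for Cox7c and -0.025 to 0.068 for Atp5mg. Signal over background limits the dim isoforms Cox8b and Cox6a2 most.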

Other observations

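Within each group the arrays kept a loose order across the subunits. Bromate replicate 1 was above the mean of the bromate arrays for 61 of 75 members, bromate replicate 3 for 42 and bromate replicate 2 for 12. Among the water arrays, replicate 3 was above the group mean for 56 members, replicate 1 for 41 and replicate 2 for 15. The median deviation of the members from the group mean was 0.061, -0.050 and 0.006 on bromate replicates 1 to 3, and 0.007, -0.036 and 0.026 on water replicates 1 to 3. Over all genes tested the mean level was -0.291, -0.275 and -0.273 on bromate replicates 1 to 3. It was -0.267, -0.247 and -0.252 on water replicates 1 to 3. Whether the order among the arrays is particular to the subunits was not tested.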
